A study of Mus musculus with 34 samples.

Results

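The genes of glycolysis and of the response to low oxygen were followed through sorted monocytes and macrophages of mice with LLC or MC38 tumors, and through cultured monocytes given the supernatant of either tumor line. The set held 40 of the 24475 genes in the deposited count table and was taken by gene symbol from a fixed list, written with earlier results of these data known. Of these, 25 were glycolytic enzymes, transporters of glucose or lactate, and regulators of the pathway (Slc2a1, Slc2a3, Slc2a6, Hk1, Hk2, Hk3, Gpi1, Pfkl, Pfkm, Pfkp, Pfkfb3, Pfkfb4, Aldoa, Aldoc, Tpi1, Gapdh, Pgk1, Pgam1, Eno1, Eno2, Pkm, Ldha, Pdk1, Slc16a1 and Slc16a3). The other 15 were the oxygen-sensing genes Hif1a, Egln1, Egln2 and Egln3 and the hypoxia targets Vegfa, Bnip3, Bnip3l, Ndrg1, P4ha1, P4ha2, Ankrd37, Ak4, Mxi1, Adm and Ddit4. All 40 were found in the table, and all 40 passed the filter on low counts both in the libraries from mice and in those from culture.

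Bulk RNA of sorted cells was sequenced in 34 libraries, 24 from mice and 10 from culture, all of the strain labelled C57/Bl6. LLC is a Lewis lung carcinoma line and MC38 a colon carcinoma line, both grown in mice of this background. From LLC tumors came TuMon2, monocytes sorted as Ly6C+ CD88+ Sca1-, and tumor macrophages. From MC38 tumors came TuMon1, monocytes sorted as Ly6C+ CD88+ Sca1+, and tumor macrophages. Ly6C+ monocytes were also taken from the spleen of mice with either tumor, and each of these 6 groups had 4 libraries. Monocytes of the bone marrow, sorted as Ly6C+, were cultured untreated (4 control libraries), with LLC supernatant (3 libraries, labelled Ly6C+ CD88+ Sca1-) or with MC38 supernatant (3 libraries, labelled Ly6C+ CD88+ Sca1+). No genetic change or drug is given for any group. The monocyte subset and the tumor line coincide, so a difference between TuMon1 and TuMon2 cannot be told apart from a difference between the tumors. In culture the Sca1 label coincides with the supernatant in the same way. Spleen and control monocytes are labelled only Ly6C+, so the sort labels also differ in comparisons with them. Whether the libraries of a group came from different mice or cultures is not stated in the labels. The p-values therefore measure the spread between these samples only, which may be technical.

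Glycolysis turns glucose into pyruvate and gives ATP without oxygen, and lactate dehydrogenase with the monocarboxylate transporters carries the carbon out of the cell as lactate. When oxygen is low, the prolyl hydroxylases of the Egln family lose activity, HIF-1 alpha (the product of Hif1a) is no longer marked for breakdown, and with its partner ARNT it raises transcription of glucose transporters, most glycolytic enzymes, Pdk1, the angiogenic factor Vegfa and the hydroxylase Egln3. Activated macrophages raise the same program also without hypoxia, after inflammatory signals that act on Hif1a.

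HIF binds the core A or G followed by CGTG, and the 250 bases upstream of the start sites of the members were searched for ACGTG and GCGTG on both strands, that is also for CACGT and CACGC. The sequences were those of RefSeq on GRCm38.p6, which had entries for 37 of the 40 members. Ndrg1, Slc2a3 and Bnip3l had none. Of the 57 windows of these members, 47 (82.5%) held either core, against 38.6% of all 32851 windows of the same length. ACGTG was found in 49.1% of the members' windows and in 16.6% of all windows, and GCGTG in 56.1% and 28.2%. A match describes letters and is not a binding site. The windows below belong to the 5 members with a match that had the largest log2 difference between the tumor monocyte subsets, and show where the core lies in them. Where a gene has several windows, the one with the most matches is shown, and among windows with equally many, as for Ak4 and Mxi1, the one with the lowest coordinate. Each is given 5′ to 3′ on the gene's strand, with the core in capitals.
Egln3: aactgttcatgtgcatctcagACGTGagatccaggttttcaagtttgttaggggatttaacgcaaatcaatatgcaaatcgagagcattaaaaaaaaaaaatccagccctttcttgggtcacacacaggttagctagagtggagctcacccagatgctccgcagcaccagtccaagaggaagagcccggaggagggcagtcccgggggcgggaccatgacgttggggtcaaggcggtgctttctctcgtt
Ankrd37: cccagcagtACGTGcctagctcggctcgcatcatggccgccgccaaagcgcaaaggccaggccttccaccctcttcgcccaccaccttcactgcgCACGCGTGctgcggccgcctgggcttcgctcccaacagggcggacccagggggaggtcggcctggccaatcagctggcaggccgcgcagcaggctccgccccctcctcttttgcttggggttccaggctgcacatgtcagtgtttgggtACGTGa
Adm: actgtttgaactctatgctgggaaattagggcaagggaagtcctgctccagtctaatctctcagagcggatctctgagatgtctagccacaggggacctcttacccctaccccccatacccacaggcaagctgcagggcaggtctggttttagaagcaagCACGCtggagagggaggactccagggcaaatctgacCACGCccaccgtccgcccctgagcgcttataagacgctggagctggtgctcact
Mxi1: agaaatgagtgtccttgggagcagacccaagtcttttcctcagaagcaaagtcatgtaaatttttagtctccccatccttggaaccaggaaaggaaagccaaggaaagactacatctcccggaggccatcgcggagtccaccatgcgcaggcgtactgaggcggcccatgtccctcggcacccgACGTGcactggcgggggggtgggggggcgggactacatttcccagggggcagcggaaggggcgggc
Ak4: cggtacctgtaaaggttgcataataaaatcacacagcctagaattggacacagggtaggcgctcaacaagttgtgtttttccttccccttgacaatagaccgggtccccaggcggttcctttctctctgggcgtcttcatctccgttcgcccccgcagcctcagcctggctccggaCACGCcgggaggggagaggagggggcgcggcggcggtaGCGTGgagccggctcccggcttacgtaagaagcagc

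The Egln3 window lies at chr12:54203875-54204124 on the minus strand, with its core 229 bases before the start site. Ankrd37 has 4 matches at chr8:45999851-46000100 on the minus strand, at 241, 155, 152 and 6 bases, and those at 155 and 152 overlap each other. The Adm window lies at chr7:110627407-110627656 on the plus strand with cores at 90 and 54 bases. Mxi1 has its core 66 bases before the start site at chr19:53329163-53329412, and Ak4 has cores at 74 and 36 bases at chr4:101419039-101419288, both on the plus strand.

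Library totals ran from 13047772 to 26966644 counts, with counts for 13475 to 16908 genes. Levels below are CPM, the usual depth-scaled counts, taken on library sizes adjusted by TMM and computed separately for the libraries from mice and from culture, so that levels are not compared between these sets. Ly6a, which encodes Sca1, followed the labels, with 1730 ± 50.4 CPM (SD, n = 4) in TuMon1 against 36.5 ± 4.71 in TuMon2, and 1510 ± 148 CPM (n = 3) with MC38 supernatant against 11.6 ± 0.333 with LLC supernatant. Ly6c2, one of the genes for Ly6C, was at 12.2 to 14.9 CPM with LLC supernatant, although these libraries are labelled Ly6C+, and at 1520 to 1890 CPM in the control culture. None of the 8 monocyte markers looked at was at 0 in any group. Some libraries carried transcripts of other tissues. Spleen monocytes of MC38 mice, replicates 1, 2 and 3, held transcripts of fat cells, with 2600, 2430 and 4570 CPM of Car3 and 433, 380 and 686 CPM of Adipoq. Replicate 3 with MC38 supernatant held Col1a1 at 1010 CPM, and the second control culture held the muscle gene Actc1 at 72.7 CPM. Counts of members are given with and without these 5 libraries.

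**Figure D1:**
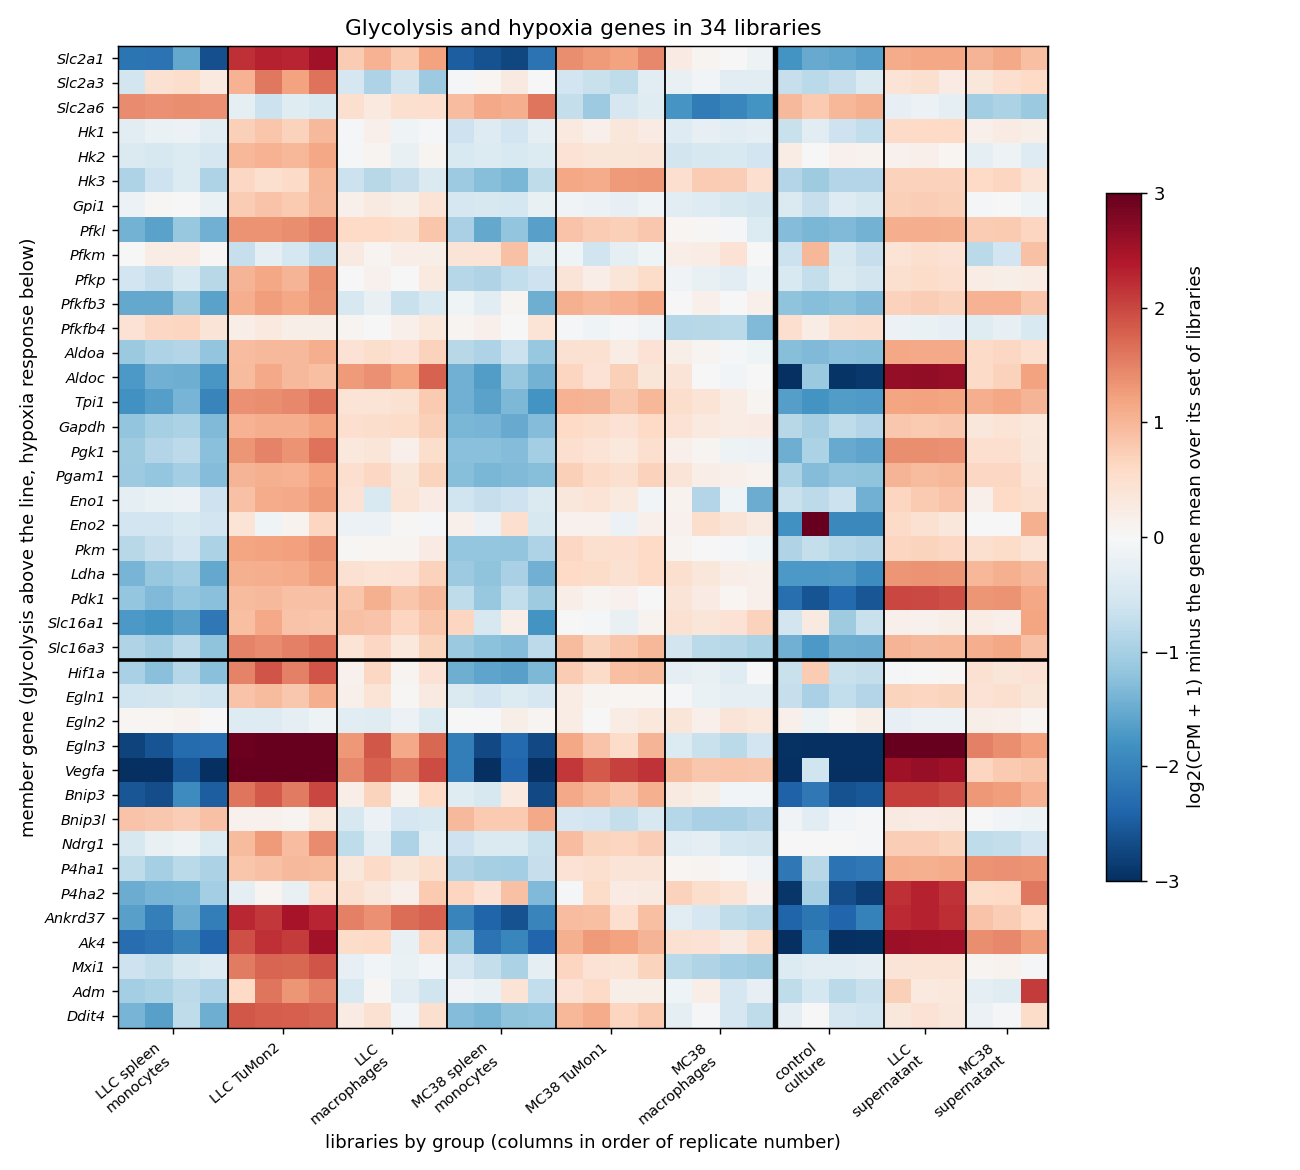
Levels of the 40 members (rows) in all 34 libraries (columns, by group), as log2(CPM + 1) minus the mean of the gene over the libraries from mice or, to the right of the thick line, over those from culture. Colors end at 3 log2 units in either direction. Red rows of glycolytic and hypoxia genes stand in TuMon2, in cultures with either supernatant and, more faintly, in TuMon1, while Slc2a6 and Bnip3l run the other way in the tumor and spleen monocytes.

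The first question was whether the monocytes of MC38 tumors differ from those of LLC tumors. Glycolytic and hypoxia genes were lower in TuMon1 than in TuMon2: 31 of the 40 members were lower, 2 were higher and 7 did not pass, at an adjusted p under 0.05 in edgeR's quasi-likelihood test. Of all 13200 genes tested, 22.1% were lower and 26.8% were higher, 48.9% in all. The members' median log2 difference was -0.67, against 0.06 over all genes. Among glycolytic genes 20 of 25 were lower with a median of -0.60, and among the hypoxia genes 11 of 15 were lower with a median of -0.90. Without the libraries with transcripts of other tissues, which are not in these groups but share the fit, 32 members were lower and 2 higher. In bulk RNA, a smaller share of cells that express a gene and less RNA per cell cannot be told apart.

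Slc2a1 (Entrez Gene 20525, chr4:119108745-119137330) encodes GLUT1, the main glucose importer of myeloid cells. It was at 685, 748, 732 and 865 CPM in the 4 TuMon2 libraries and at 398, 365, 345 and 406 CPM in the 4 TuMon1 libraries. The groups did not overlap, and the log2 difference was -1.001 ± 0.164 (SE, adjusted p = 2.7e-05). Slc2a3, the gene for GLUT3, was far less abundant, at 13.2 to 20.3 CPM in TuMon2 and 3.07 to 4.44 CPM in TuMon1, and fell by 2.23 ± 0.22 on the log2 scale (adjusted p = 1.06e-08). Slc2a6, a lysosomal glucose transporter, overlapped between the groups (log2 difference -0.22 ± 0.14, adjusted p = 0.199).

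Of the 7 genes that lead from glucose to fructose bisphosphate, Hk1, Hk2, Gpi1, Pfkl and Pfkp were lower in TuMon1. Gpi1, which turns glucose 6-phosphate into fructose 6-phosphate, was at 1110 to 1280 CPM in TuMon2 and 550 to 607 CPM in TuMon1, a 2.02-fold difference (adjusted p = 2.67e-10). Hk3 (chr13:55005985-55021475), a hexokinase of myeloid cells, was the only glycolytic member that was higher in TuMon1. Its libraries read 358, 346, 389 and 395 CPM there and 246, 224, 239 and 320 CPM in TuMon2, without overlap (log2 difference 0.53 ± 0.13, adjusted p = 0.00201). Pfkm, the muscle form of phosphofructokinase, was at 3.26 to 5.70 CPM in both groups together and did not pass (0.35 ± 0.21, adjusted p = 0.184). The enzymes that set the level of fructose 2,6-bisphosphate, the activator of phosphofructokinase, differed little. Pfkfb4 was 1.24-fold lower (adjusted p = 0.0154, and 0.0552 without the second TuMon1 library), and Pfkfb3 did not pass with all 24 libraries in the fit (-0.14 ± 0.20, adjusted p = 0.598).

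From aldolase to pyruvate, 8 of 9 genes were lower in TuMon1. Pgk1 (chrX:106187100-106203699), the first ATP-forming enzyme of the pathway, was at 1364, 1523, 1394 and 1675 CPM in TuMon2 and at 773, 728, 678 and 776 CPM in TuMon1. That was a 2.02-fold difference with no overlap (adjusted p = 1.88e-08). Gapdh, Aldoa, Tpi1, Pgam1, Pkm and Aldoc were lower by 1.39-fold to 1.61-fold. Eno2, the neuronal enolase, was at 0.329 to 1.32 CPM in these groups and did not pass. Eno1 was 1.82-fold lower (adjusted p = 0.00754), but it shares reads with the near-identical Eno1b. With the counts of both summed, the log2 difference was -0.78 (adjusted p = 1.44e-07).

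All 4 genes of pyruvate use and lactate export were lower in TuMon1. Ldha, which makes lactate, was at 1431 to 1629 CPM in TuMon2 and at 937 to 1037 CPM in TuMon1 (1.49-fold, adjusted p = 5.59e-05). Pdk1, the kinase that inhibits pyruvate dehydrogenase, was 1.78-fold lower (adjusted p = 2.75e-08). The lactate transporters Slc16a1 (MCT1) and Slc16a3 (MCT4) were 2.05-fold and 1.57-fold lower (adjusted p = 0.00854 and 4.04e-05), and MCT4, the exporter, was the more abundant of the pair per kilobase of exons, at 131 ± 8.42 CPM against 5.41 ± 0.585 in TuMon2.

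The oxygen-sensing genes moved in both directions. Hif1a (chr12:73901324-73947554) was at 634, 842, 649 and 845 CPM in TuMon2 and at 388, 340, 425 and 436 CPM in TuMon1, a 1.87-fold difference with no overlap (adjusted p = 2.68e-06). Egln3 (Entrez Gene 112407, chr12:54178981-54203874), itself a HIF target, was at 161, 197, 166 and 240 CPM in TuMon2 and at 46.4, 36.9, 29.7 and 41.5 CPM in TuMon1. At -2.31 ± 0.18 (adjusted p = 1.14e-09) it had the largest log2 difference of the 40 members. Egln1 was 1.77-fold lower, whereas Egln2, the hydroxylase that is not a HIF target, was higher in TuMon1, with 41.6 to 52.1 CPM against 32.0 to 37.4 CPM (0.50 ± 0.08, adjusted p = 8.96e-06).

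Of the 11 further hypoxia targets, 8 were lower in TuMon1. Ankrd37 (chr8:45996908-46000414), an ankyrin repeat gene, was at 54.1, 49.1, 62.4 and 54.5 CPM in TuMon2 and at 20.7, 20.5, 15.2 and 20.4 CPM in TuMon1 (2.87-fold, adjusted p = 8.67e-08). Mxi1, a repressor of the MYC network, was 2.28-fold lower (adjusted p = 3.52e-09), and Ddit4, an inhibitor of mTORC1, was 1.89-fold lower (adjusted p = 9.46e-05). Ak4, a mitochondrial adenylate kinase, was at 18.8 to 28.9 CPM in TuMon2 and at 9.43 to 11.4 CPM in TuMon1 (-1.14 ± 0.36, adjusted p = 0.0129).

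Adm, the gene for adrenomedullin, was at 2.03 to 5.17 CPM in TuMon2 and at 1.26 to 1.98 CPM in TuMon1. Its log2 difference of -1.36 ± 0.45 had an adjusted p of 0.015, which became 0.0585 without the second TuMon2 library and 0.0611 or 0.0505 without TuMon1 replicate 3 or 4. Vegfa (chr17:46016993-46032377), which encodes the angiogenic factor VEGF-A, was at 2048, 1956, 2267 and 2205 CPM in TuMon2 and at 1073, 883, 1027 and 1112 CPM in TuMon1. These groups did not overlap, yet Vegfa did not pass in the fit of all 24 libraries (-1.05 ± 0.59, adjusted p = 0.153), in which the spread of Vegfa among the spleen libraries enters. In a fit of the 8 tumor monocyte libraries alone it passed (-1.08, adjusted p = 1.34e-09), and so did the mitophagy receptor gene Bnip3 (-0.79, adjusted p = 1.11e-05, against -0.76 and 0.0847 with all 24).

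Markers of other cells stood at different levels in the same groups. The summed level of 5 epithelial markers was 41.3 to 65.6 CPM in TuMon2, most of it Cdh1 at 39.9 to 63.3 CPM with Krt19 at 0, and 5.6 to 7.83 CPM in TuMon1. Macrophage markers summed to 4220 to 4410 CPM in TuMon2 and 8310 to 9230 CPM in TuMon1, and neutrophil markers to 84.2 to 123 and 28 to 34.8 CPM. Mrc1 went against the macrophage sum, at 516 to 804 CPM in TuMon2 and 193 to 246 CPM in TuMon1. Most of the neutrophil sum in TuMon2 was Mmp8, at 58.8 to 83.5 CPM. Ly6g went against that sum, at 1.23 to 2.02 CPM in TuMon2 and 4.43 to 6.7 CPM in TuMon1. The part of these markers in the member differences was not tested.

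The MC38 and LLC sides were also compared in monocytes cultured with either supernatant. Their labels differ in Sca1 as in the tumors, so supernatant and sorted subset cannot be told apart. Of the 40 members, 20 were lower and 2 were higher with MC38 than with LLC supernatant, and 18 did not pass. Over all 12603 genes tested 18.5% were lower and 21.6% higher, 40.1% in all. The median log2 difference was -0.35 for the members and 0.05 for all genes. Lower were 13 of 25 glycolytic and 7 of 15 hypoxia genes. Without the second control culture and MC38 supernatant replicate 3, the culture libraries with transcripts of other tissues, 28 members were lower and 5 higher.

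Pgk1 read 2674, 2653 and 2614 CPM in the 3 libraries with LLC supernatant and 1426, 1447 and 1292 CPM in the 3 with MC38 supernatant (-0.93 ± 0.15, adjusted p = 0.000674). Gpi1 was at 1641 to 1688 CPM and 917 to 1010 CPM (1.72-fold, adjusted p = 3.76e-05), and Pdk1 at 307 to 321 CPM and 178 to 202 CPM (1.63-fold, adjusted p = 0.000253). Slc2a6 was 1.77-fold lower (adjusted p = 3.85e-05). Eno1 did not pass alone (-0.35, adjusted p = 0.189), but with the counts of Eno1b added it was lower (-0.45 ± 0.06, adjusted p = 0.000182). Aldoc, the brain form of aldolase, was at 132 to 136 CPM against 31.4 to 49.8 CPM, but its adjusted p of 0.0487 rose to between 0.0588 and 0.133 without any 1 supernatant library or without control replicate 3 or 4.

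The glucose importers did not follow. Slc2a1 was at 216 to 222 CPM with LLC supernatant and at 186 to 218 CPM with MC38 supernatant (-0.12 ± 0.08, adjusted p = 0.261), and Slc2a3 overlapped as well (0.12 ± 0.13, adjusted p = 0.484). Slc16a3 also overlapped, with a difference of 0.05 ± 0.09. Pfkfb3 was the only glycolytic member higher with MC38 supernatant (1.2-fold, adjusted p = 0.0104, and 0.0554 or 0.0538 without the first LLC or the second MC38 supernatant library).

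Of the hypoxia genes, Egln3 read 240, 245 and 241 CPM with LLC supernatant and 86.0, 79.7 and 71.0 CPM with MC38 supernatant (3.06-fold, adjusted p = 9.14e-06). Ankrd37 read 36.7, 38.7 and 36.1 CPM against 13.5, 12.4 and 11.01 CPM (3.03-fold, adjusted p = 5.16e-05). Ndrg1, a stress-induced gene of the same program, read 368, 364 and 348 CPM against 128, 133 and 146 CPM (2.66-fold, adjusted p = 1.38e-07). In each of these the groups lay far apart. Bnip3 and Mxi1 were 1.79-fold and 1.28-fold lower, and Egln2 was again higher, by 1.26-fold (adjusted p = 0.0131, and 0.0544 to 0.076 without any 1 LLC supernatant library or without MC38 supernatant replicate 1 or 2).

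Vegfa was at 243 to 257 CPM with LLC supernatant and at 64.1 to 73.9 CPM with MC38 supernatant, and Ak4 at 73.9 to 76.0 and 30.1 to 34.3 CPM. Neither pair of groups overlapped and neither gene passed (adjusted p = 0.0808 and 0.0691). Among the control cultures the second read highest for both genes, at 26.6 and 2.19 CPM, and without it both passed (-1.84 and -1.20, adjusted p = 3.05e-08 and 8.17e-05). Hif1a was at 110 to 116 CPM with LLC supernatant and at 146 to 155 CPM with MC38 supernatant, the opposite order to the tumor monocytes, and did not pass either (0.42 ± 0.39, adjusted p = 0.429) unless that control library was left out (0.42, adjusted p = 3.11e-05).

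The tumor and the culture comparisons share no library. Lower on the MC38 side in both were 18 members, which is 58.1% of those lower in TuMon1 and 90% of those lower with MC38 supernatant. Since 50% of all members were lower with MC38 supernatant and 77.5% in TuMon1, both shares lie close to these base rates. Of the 12294 genes tested in both fits 915 were lower in both, which is 31.9% of those lower in TuMon1 and 39.8% of those lower with MC38 supernatant. The members were Hk1, Hk2, Gpi1, Pfkl, Pfkp, Aldoa, Aldoc, Gapdh, Pgk1, Pgam1, Ldha, Pdk1, Egln1, Egln3, Bnip3l, Ndrg1, Ankrd37 and Mxi1. Egln2 was higher in both, and no member passed in opposite directions. Eno1 is not among the 18, since it passed between the supernatants only with the counts of Eno1b added. Some of these calls depend on single libraries in culture, as given above for Aldoc and Egln2. Egln1, at 139 to 142 CPM with LLC and 115 to 125 CPM with MC38 supernatant (-0.23 ± 0.08, adjusted p = 0.0348), did not pass without any 1 supernatant library or without control replicate 3 or 4 (adjusted p = 0.0569 to 0.122), nor with no filter (0.0914) or with the replicate block (0.0754). Aldoc did not pass in those fits either (0.0759 and 0.091). Pfkp had an adjusted p of 0.0528 without LLC supernatant replicate 2.

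**Figure D2:**
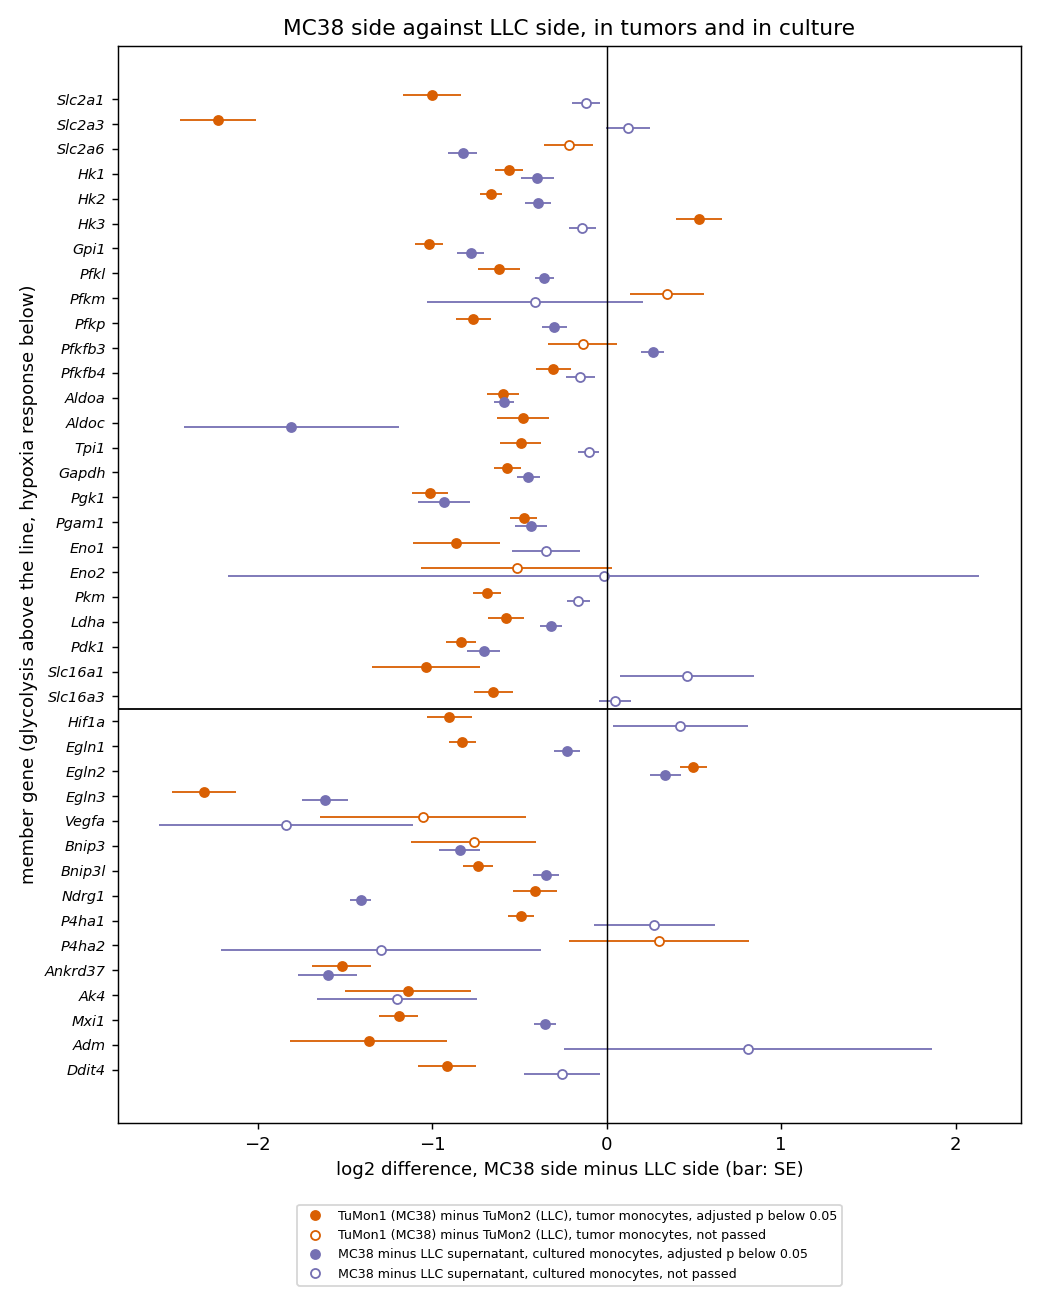
Log2 differences of the 40 members, MC38 side minus LLC side, for tumor monocytes (TuMon1 minus TuMon2, orange) and cultured monocytes (MC38 minus LLC supernatant, purple), with SE bars. Filled points passed at an adjusted p under 0.05. Most filled points lie left of 0 in both colors, with Egln3 at -2.31 and -1.62, while Egln2 lies right of 0 in both and Hk3 right of 0 in the tumors.

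The second question was how tumor monocytes differ from spleen monocytes of mice with the same tumor. In LLC mice all 40 members passed, with 35 higher in TuMon2 and 5 lower (over all 13200 genes, 28.6% higher and 34% lower, 62.6% in all). The members' median was 2.26 and that of all genes -0.05. In MC38 mice 30 members were higher in TuMon1, 5 were lower and 5 did not pass (over all genes, 33.5% higher and 36.6% lower, 70.1% in all), with medians of 1.31 and -0.04. Of the 4 MC38 spleen libraries, 3 are among those with transcripts of other tissues. Without those 5 libraries 32 members were higher and 3 lower in MC38 mice, against 1 remaining spleen library that is assumed to vary like the other groups, and 35 and 5 in LLC mice. Markers of other cells differed between the same groups. Neutrophil markers summed to 2180 to 3480 CPM in LLC and 521 to 2290 CPM in MC38 spleen monocytes, against 84.2 to 123 CPM in TuMon2 and 28 to 34.8 CPM in TuMon1. Macrophage markers summed to 1720 to 1890 CPM in LLC and 1720 to 2150 CPM in MC38 spleen monocytes, below the tumor monocytes given above. Adgre1 overlapped in LLC mice, at 229 to 315 CPM in spleen monocytes and 237 to 278 CPM in TuMon2. Ly6g went against the neutrophil sum in MC38 mice, at 1.84 to 4.43 CPM in spleen monocytes and 4.43 to 6.7 CPM in TuMon1. Cxcr2 overlapped in mice with either tumor. The part of these markers in the member differences was not tested.

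Slc2a1 read 32.1, 31.7, 50.9 and 23.3 CPM in LLC spleen monocytes and 26.1, 23.8, 21.8 and 31.3 CPM in MC38 spleen monocytes. The tumor monocytes of the same mice, given above, exceeded these 21.9-fold for LLC (4.45 ± 0.19, adjusted p = 3.93e-15) and 14.7-fold for MC38 (3.88 ± 0.18, adjusted p = 1.51e-14). Tpi1 was 8.97-fold and 5.67-fold higher, Pfkl, the liver-type phosphofructokinase, 7.05-fold and 4.31-fold, and Ldha 5.29-fold and 3.31-fold. Hk3 was 2.62-fold higher in TuMon2 and 5.03-fold higher in TuMon1.

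Lower in tumor than in spleen monocytes on both sides were Slc2a6, Pfkm, Pfkfb4 and the mitophagy receptor gene Bnip3l. Slc2a6 fell from 91.1 to 95.5 CPM in LLC spleen monocytes to 21.9 to 28.2 CPM in TuMon2 (3.65-fold), and from 67.6 to 108 CPM in MC38 spleen monocytes to 15.9 to 26.7 CPM in TuMon1 (3.76-fold). Bnip3l was 1.58-fold lower in TuMon2 and 2.82-fold lower in TuMon1. Pfkfb4 was 1.25-fold and 1.19-fold lower, and on the MC38 side its adjusted p of 0.03 became 0.0515 to 0.174 without TuMon1 replicate 2, 3 or 4, TuMon2 replicate 1, 3 or 4 or MC38 spleen replicate 4. Egln2 was 1.29-fold lower in TuMon2 (adjusted p = 0.000207). Pfkm was 1.75-fold and 1.71-fold lower, but on the MC38 side the groups overlapped, and without the libraries with transcripts of other tissues the difference there was 0.12. Slc2a3 was 2.37-fold higher in TuMon2 (adjusted p = 1.47e-05) and 1.74-fold lower in TuMon1 (adjusted p = 0.00228, and 0.0849 without those libraries).

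Several hypoxia targets were almost silent in the spleen. Egln3 was at 2.07 to 3.34 CPM in LLC and 2.23 to 4.003 CPM in MC38 spleen monocytes, and 68-fold and 13.3-fold higher in the tumor monocytes (adjusted p = 1.57e-15 and 1.3e-12). Ankrd37 was 23.5-fold and 13.7-fold higher, and Hif1a 6.9-fold and 4.98-fold higher. Ak4 had 11 counts in all 4 LLC spleen libraries against 1433 in TuMon2, a ratio of 139 after division by library totals, with a 95% exact interval of 77.3 to 278 that covers counting error only. Eno2 had 2 counts in LLC spleen monocytes and 49 in TuMon2, a ratio of 26.1 with an interval of 6.84 to 221, and Adm had 6 and 259, a ratio of 46 with an interval of 20.8 to 126.

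Vegfa varied among spleen libraries, with 19.3, 2.86, 41.8 and 4.14 CPM in LLC and 58.3, 26.7, 46.4 and 5.49 CPM in MC38 mice. It still rose 123-fold in TuMon2 (6.95 ± 0.76, adjusted p = 1.83e-07) and 29.8-fold in TuMon1 (4.90 ± 0.69, adjusted p = 4.1e-06). The size of the fold depends on which spleen libraries are counted, and against MC38 spleen replicate 4 alone, the library without fat cell transcripts, it was 185-fold (adjusted p = 0.000167). Bnip3 read 54.2, 49.9 and 85.7 CPM in MC38 spleen replicates 1 to 3 and 9.86 CPM in replicate 4, and Slc16a1 19.4, 8.28 and 13.9 CPM against 2.78 CPM. Fat cell markers were high in the same 3 libraries, and their part in these levels was not tested. In TuMon1 against MC38 spleen, Slc16a1, Eno2, P4ha2 and Adm did not pass with all libraries (0.07, 0.02, -0.14 and 0.78). Without the affected libraries they were higher by 2.06, 2.97, 4.12 and 2.93 (adjusted p = 1.12e-07, 0.0385, 0.000316 and 0.00739).

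The test of the difference between these 2 tumor-to-spleen differences found 31 members with a smaller rise, or a larger fall, in MC38 than in LLC mice and 2, Hk3 and Egln2, the other way. Over all genes 19.1% and 23.8% passed in these directions, 42.9% in all, and the medians were -0.70 and 0.04. Slc2a3 had a difference of -2.05 ± 0.30 (adjusted p = 9.21e-06), Pdk1 of -1.15 ± 0.13 (adjusted p = 1.35e-07) and Egln3 of -2.36 ± 0.31 (adjusted p = 3.85e-06). For Hk3 it was 0.94 ± 0.19 (adjusted p = 0.000333), and 0.59 with an adjusted p of 0.0586 without the libraries with transcripts of other tissues. In that fit 19 members passed as lower and 2 as higher, and Slc2a3, Pdk1 and Egln3 still passed (-1.96, -0.99 and -1.99, adjusted p = 0.000668, 1.34e-05 and 0.0166). Slc2a1 did not pass (-0.57 ± 0.23, adjusted p = 0.0535) but did without LLC spleen replicate 3 (-0.81, adjusted p = 0.00149) or MC38 spleen replicate 3 (-0.65, adjusted p = 0.0383). Eno1 did not pass alone (-0.59, adjusted p = 0.189) but did with the counts of Eno1b added (-0.54 ± 0.13, adjusted p = 0.00153).

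**Figure D3:**
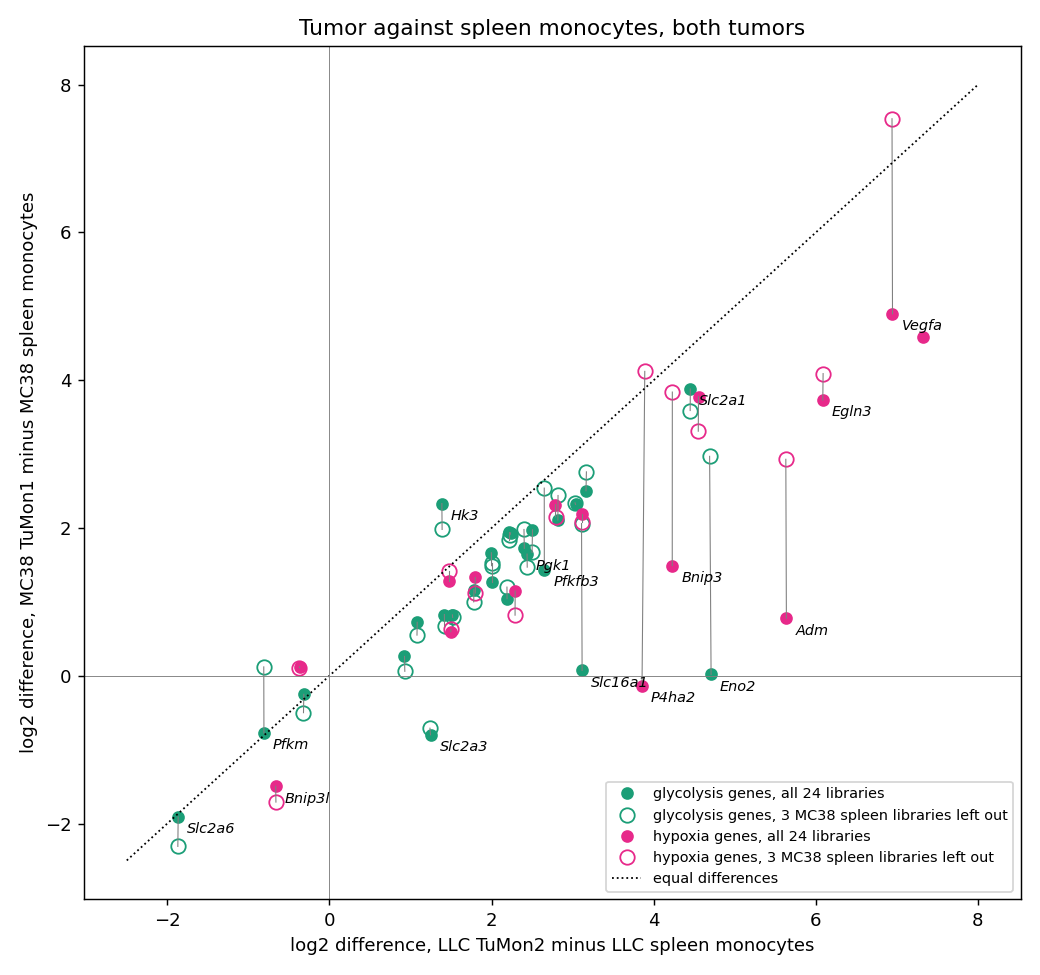
Log2 difference of each member between tumor and spleen monocytes in LLC mice (horizontal axis) and in MC38 mice (vertical axis), for glycolytic (green) and hypoxia (pink) genes. Filled points use all 24 libraries and open points leave out the libraries with transcripts of other tissues (for Ak4 no open point is drawn, since its remaining MC38 spleen library has no count). Most points lie right of 0 and under the dotted line of equal differences, and the points that move most between the settings are Bnip3, P4ha2, Eno2, Adm, Vegfa, Slc16a1 and Pfkfb3.

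Spleen monocytes of the mice with either tumor were compared with each other as a background. With all libraries 7 members were higher and 7 lower in MC38 mice, at 14.4% and 14% of all genes, 28.4% together. The medians were 0.01 for the members and -0.07 for all genes. Eno2, P4ha2, Adm, Bnip3, Slc16a1 and Pfkfb3 were among those higher, and Ankrd37 and Hif1a among those lower. Eno1 passed as lower only with the counts of Eno1b added (-0.24 ± 0.09, adjusted p = 0.0487). Without the 3 MC38 spleen libraries with fat cell transcripts, no member passed in edgeR's test and 3 had an unadjusted p under 0.05, and 22 genes of the table passed, against 3755 before. Only 1 MC38 spleen library remains in that fit, which assumes that it varies like the other groups, and DESeq2 was not run on it.

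Next came the cultures with supernatant against the control culture. With LLC supernatant 32 members were higher and 3 lower (32.3% and 36.1% of all 12603 genes, 68.4% together), with a median of 1.64 against -0.07. With MC38 supernatant 31 were higher and 4 lower (35.4% and 32.5%, 67.9% together), with a median of 1.40 against 0.05. Without the second control culture and MC38 supernatant replicate 3 the counts were 36 higher and 3 lower, and 33 higher and 4 lower. Both comparisons use the same control libraries, so they are not independent of each other, and their values stand side by side here. Macrophage markers summed to 655 to 801 CPM in the control cultures, to 9360 to 9540 CPM with LLC and to 7270 to 8260 CPM with MC38 supernatant. Neutrophil markers summed to 977 to 1360, 1700 to 1760 and 1460 to 1760 CPM in the same order. With the supernatants most of this sum was Mmp8, at 167 to 218, 1690 to 1750 and 1370 to 1650 CPM. S100a8, S100a9, Camp, Ltf and Ly6g went the other way, with S100a8 at 278 to 375, 1.58 to 3.48 and 24.6 to 34.9 CPM. Cxcr2 was lower with LLC supernatant, at 0.769 to 1.58 CPM against 2.83 to 4.88 CPM in the control cultures, and overlapped with MC38 supernatant. Fat cell markers, at 0.354 to 0.549 CPM in the control cultures, summed to 90.5 to 94.7 and 23.4 to 30.1 CPM with the supernatants, where Cfd and Plin1 were at 0. Nearly all of this was Fabp4 alone, at 90.4 to 94.7 CPM with LLC and 23.3 to 30.1 CPM with MC38 supernatant. The part of these markers in the member differences was not tested.

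Slc2a1 was at 27.9, 33.8, 32.8 and 30.9 CPM in the control cultures and rose 7-fold with LLC and 6.44-fold with MC38 supernatant (adjusted p = 4.75e-10 and 5.84e-10). Ldha rose 8.53-fold and 6.84-fold, Tpi1 7.49-fold and 6.98-fold, and Slc16a3 5.83-fold and 6.03-fold. Pdk1 was at 12.2 to 15.8 CPM in the control cultures and rose 22.5-fold and 13.8-fold (4.49 ± 0.10 and 3.79 ± 0.10 on the log2 scale). Aldoc rose 42.1-fold and 12-fold from a base of 1.03 to 1.94 CPM in 3 control libraries and 9.05 CPM in the second. Without that library and MC38 supernatant replicate 3 the folds were 86.5 and 21.4.

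Slc2a6 and Pfkfb4 fell with both supernatants, as they were lower in tumor than in spleen monocytes. Slc2a6 was at 64.3 to 78.5 CPM in the control cultures and fell 2.36-fold with LLC and 4.17-fold with MC38 supernatant. Pfkfb4 fell 1.55-fold and 1.72-fold. Hk2, the inducible hexokinase, fell 1.32-fold with MC38 supernatant (adjusted p = 0.000591) and did not pass with LLC supernatant, with 213 to 247 CPM in the control cultures and 222 to 236 CPM with LLC supernatant. Pfkm and Eno2 did not pass on either side with all libraries. Eno2 read 35.1 CPM in the second control culture and at most 0.0732 CPM in the others, against 2.76 to 6.91 CPM with the supernatants, so its direction turns on that library.

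Egln3 was at 2.89, 1.91, 2.25 and 1.68 CPM in the control cultures and rose 108-fold with LLC and 35.3-fold with MC38 supernatant (adjusted p = 1.33e-10 and 5.63e-10). Ak4 rose 101-fold and 44-fold, Ankrd37 54.9-fold and 18.1-fold, Bnip3 23.7-fold and 13.2-fold, and P4ha1, a collagen prolyl hydroxylase, 7.18-fold and 8.68-fold. Ak4 read 0.293, 2.19, 0.241 and 0.682 CPM in the control cultures, highest in the second. Without that library and MC38 supernatant replicate 3, Ak4 rose 196-fold and 89.6-fold. Adm had 6 counts in the 4 control libraries, 100 with LLC and 176 with MC38 supernatant, and the ratios of 17.7 and 33.9 had 95% intervals of 7.85 to 49.3 and 15.3 to 93.7. For MC38 supernatant most of these counts came from replicate 3, at 6.54 CPM against 0.453 and 0.362 CPM in the others, which is the library with Col1a1. Without that library and the second control culture Adm had 3 counts in the control, 100 with LLC and 18 with MC38 supernatant, with ratios of 29.7 and 8.96 and intervals of 9.87 to 146 and 2.61 to 47.5.

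Ndrg1 with MC38 supernatant and Egln2 with LLC supernatant differed in direction from most hypoxia genes. Ndrg1 was at 210 to 222 CPM in the control cultures, rose 1.65-fold with LLC supernatant (adjusted p = 9.41e-07) and fell 1.61-fold with MC38 supernatant (adjusted p = 1.78e-06). Egln2 fell 1.21-fold with LLC supernatant (adjusted p = 0.0147, and 0.0572 to 0.0897 without any 1 LLC supernatant library). Hif1a read 70.6, 192, 70.2 and 68.4 CPM in the control cultures, and the second of these, which carries the muscle transcripts, stood apart. With it Hif1a did not pass on either side (0.17 ± 0.36 and 0.59 ± 0.36), and without it Hif1a was higher by 0.69 with LLC and by 1.11 with MC38 supernatant (adjusted p = 2.5e-07 and 7.21e-09).

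Tumor macrophages were then set against the monocytes of the same tumor. In LLC tumors 30 members were lower and 3 higher in macrophages than in TuMon2 (26.3% and 29.2% of all genes, 55.5% together), with medians of -0.92 and 0.06. In MC38 tumors 30 were lower and 1 was higher than in TuMon1 (27.9% and 24.8%, 52.7% together), with medians of -0.59 and -0.02. Without the libraries with transcripts of other tissues 31 were lower and 3 higher in LLC, and 32 lower and 2 higher in MC38 macrophages. Slc2a1 was at 253, 310, 258 and 348 CPM in LLC macrophages and at 177, 160, 152 and 135 CPM in MC38 macrophages, which was 2.59-fold and 2.43-fold lower than in the monocytes (adjusted p = 3.41e-07 and 9.28e-07). Egln3 was at 51.4, 75.7, 45.5 and 68.6 CPM and at 14.8, 12.4, 10.99 and 13.2 CPM, which was 3.17-fold and 3-fold lower (adjusted p = 8.5e-08 and 3.18e-07). Neither gene overlapped between macrophages and monocytes of a tumor. Epithelial markers summed to 91.6 to 144 CPM in LLC macrophages against 41.3 to 65.6 CPM in TuMon2, and neutrophil markers to 9.42 to 17.6 against 84.2 to 123 CPM. Most of the epithelial sum was Cdh1, at 89.2 to 140 CPM in LLC macrophages, where Epcam and Krt19 were at 0. In MC38 macrophages epithelial markers summed to 5.5 to 8.08 CPM and neutrophil markers to 9.62 to 14.7 CPM, against 5.6 to 7.83 and 28 to 34.8 CPM in TuMon1. Macrophage markers summed to 8680 to 9910 CPM in LLC and 13200 to 14000 CPM in MC38 macrophages, above the monocytes of the same tumor. Among them Cd68 went the other way, at 732 to 817 CPM in LLC and 877 to 1020 CPM in MC38 macrophages. In TuMon2 Cd68 was at 927 to 999 CPM and in TuMon1 at 1060 to 1300 CPM. Mertk did not rise in MC38 macrophages, at 54.7 to 75.2 CPM against 62.1 to 77.3 CPM in TuMon1. The part of these markers in the member differences was not tested.

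Mxi1 was 3.7-fold and 2.83-fold lower in LLC and MC38 macrophages, Ndrg1 3.33-fold and 2.26-fold, and Ddit4 2.88-fold and 2.42-fold. Slc16a3 was 2.01-fold and 3.16-fold lower, and Hif1a 2.59-fold and 2.04-fold. Pdk1 passed in neither tumor (0.01 ± 0.09 and 0.12 ± 0.09). Vegfa was at 677 to 960 CPM in LLC and 434 to 475 CPM in MC38 macrophages, under all monocyte libraries of the same tumor. It did not pass with all 24 libraries (adjusted p = 0.0533 and 0.101) and passed in fits of the groups compared alone (-1.40 and -1.17, adjusted p = 9.56e-08 and 1.57e-09).

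Against this direction went Slc2a6, Pfkm and Aldoc in LLC macrophages and Pfkm in MC38 macrophages. Slc2a6 was at 42.9 to 50 CPM in LLC macrophages, 1.87-fold higher than in TuMon2 (adjusted p = 5.47e-06), and at 7.35 to 9.59 CPM in MC38 macrophages, 2.53-fold lower than in TuMon1 (adjusted p = 3.93e-08). Pfkm was 1.48-fold higher in MC38 macrophages, with an adjusted p of 0.0227 that rose to 0.0924, 0.0507 or 0.0784 without TuMon1 replicate 2 or 3 or macrophage replicate 3. Aldoc was 1.36-fold higher in LLC macrophages (adjusted p = 0.0142, and 0.0521, 0.062 or 0.105 without TuMon2 replicate 1 or 4 or macrophage replicate 4).

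The test of the difference between the 2 macrophage-to-monocyte differences passed as positive (MC38 minus LLC) for 7 members and as negative for 5 (6.25% and 8.27% of all genes, 14.5% together), with medians of 0.25 and -0.06. The first count was 4 without MC38 macrophage replicate 1 and 15 without MC38 spleen replicate 4, and without the libraries with transcripts of other tissues it was 15 beside 5 negative. Slc2a3 had the largest difference (2.86 ± 0.31, adjusted p = 7.1e-07). It was 5.48-fold lower in macrophages than in monocytes of LLC tumors and read 4.42 to 5.49 CPM in MC38 macrophages against 3.07 to 4.44 CPM in TuMon1. Slc2a6 followed with -2.24 ± 0.20 (adjusted p = 3.09e-08). Hk3, Pgk1, Pkm, Pfkp, Ndrg1 and Egln1 differed by 0.38 to 0.75, and Aldoc, Ankrd37, Pfkfb4 and Slc16a3 by -0.94 to -0.65.

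Between the macrophages of the 2 tumors, 24 members were lower and 4 higher in MC38 than in LLC (22.9% and 22.4% of all genes, 45.3% together), with medians of -0.41 and 0.00. Without the libraries with transcripts of other tissues 24 were lower and 5 higher. Ankrd37 read 31.9, 28.7, 35.6 and 38.0 CPM in LLC macrophages and 8.002, 7.07, 5.80 and 5.29 CPM in MC38 macrophages (5.1-fold, adjusted p = 1.08e-10). Egln3 was 4.69-fold lower and Slc2a6 5.49-fold lower. Higher in MC38 macrophages were Hk3 (2.43-fold, adjusted p = 2.96e-08), Egln2 (1.55-fold, adjusted p = 1.93e-07), Slc2a3 (1.55-fold, adjusted p = 0.0217) and Pfkfb3 (1.44-fold, adjusted p = 0.0353). Slc2a3 lost the call without LLC macrophage replicate 2 or 4 or MC38 macrophage replicate 2 (adjusted p = 0.0631 to 0.0764), and Pfkfb3 without LLC macrophage replicate 1, 3 or 4 or MC38 macrophage replicate 2 or 4 (0.0589 to 0.0957). The epithelial markers given above, mostly Cdh1, also differed between these groups, and their part in these differences was not tested. With all libraries in the fits Ankrd37 passed in all 12 comparisons, many of which share libraries, and some of which are differences between others. Its call between the spleens includes the MC38 libraries with fat cell transcripts. There it was at 0.863 to 1.92 CPM in MC38 and 1.74 to 3.09 CPM in LLC mice.

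**Figure D4:**
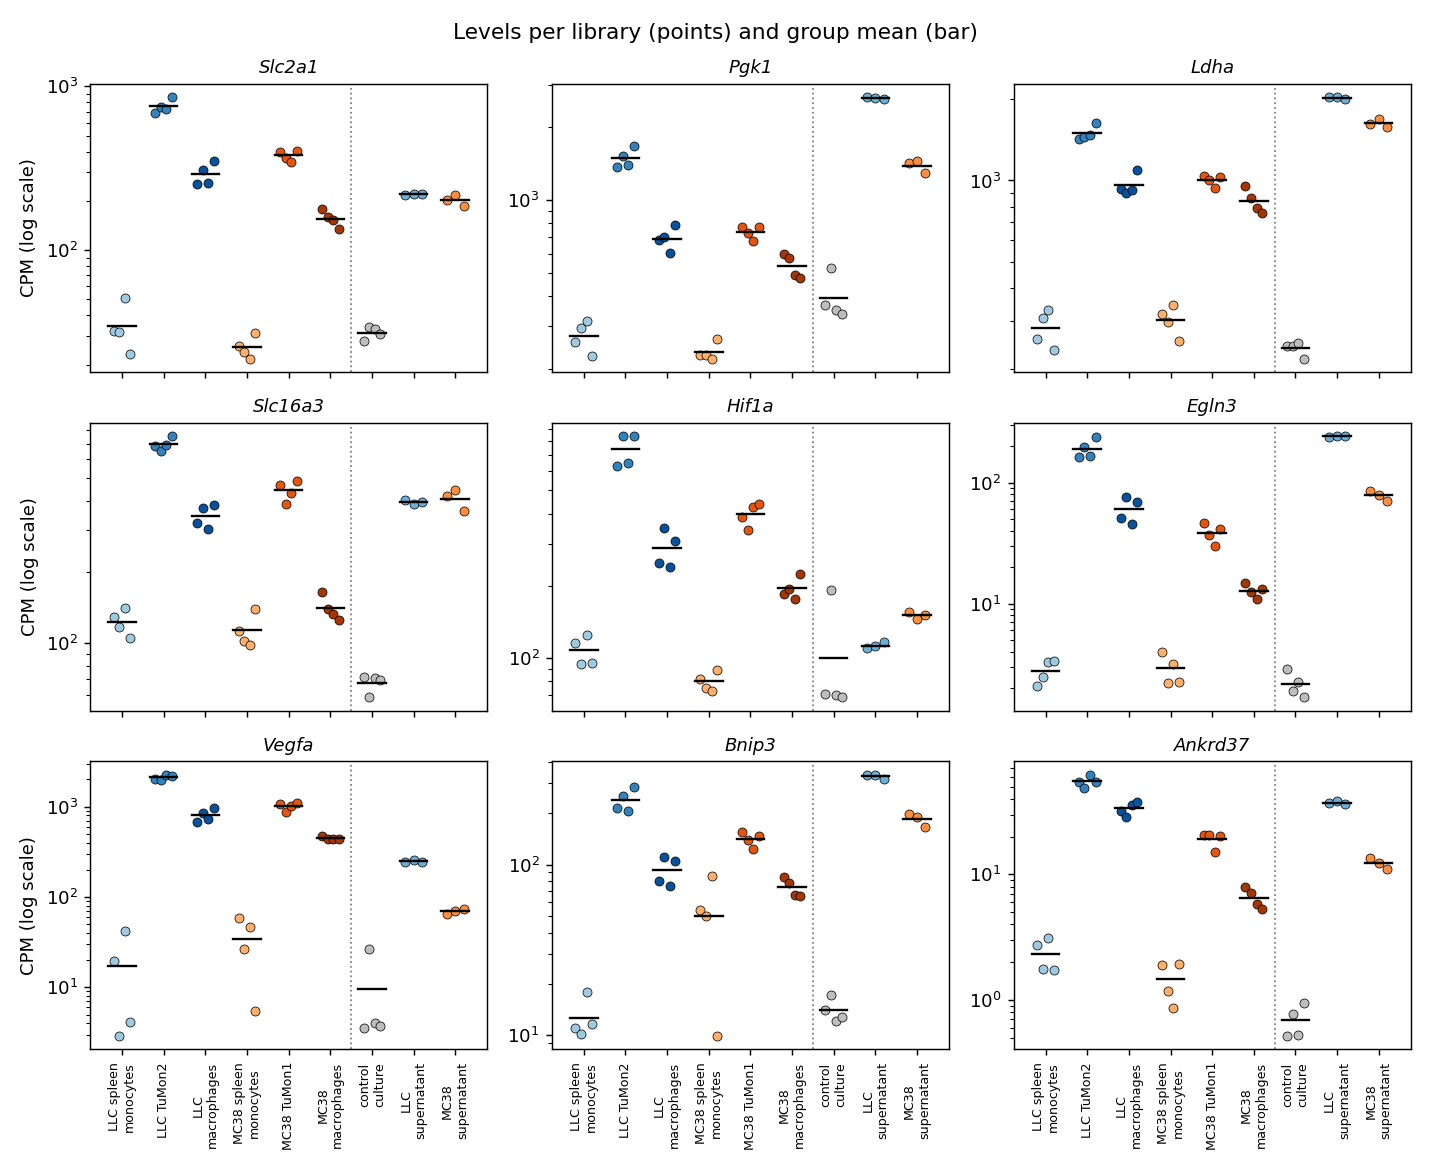
Level of 9 members in every library (points, CPM on a log axis) by group, with the group mean as a bar; the dotted line parts the libraries from mice from those from culture, whose levels are scaled separately. In the tumors Slc2a1, Hif1a, Egln3, Vegfa and Ankrd37 are highest in TuMon2, lower in LLC macrophages and TuMon1, and lowest in MC38 macrophages, and the second control culture stands apart for Hif1a and Vegfa.

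Isozymes were compared per kilobase of exons. Slc2a1 was the most abundant of the 3 glucose transporters in tumor monocytes, with 216 ± 21.8 CPM per kilobase (SD, n = 4) in TuMon2 and 108 ± 8.13 in TuMon1. In spleen monocytes Slc2a6 had the higher level, at 28.9 ± 0.642 against 9.84 ± 3.34 for Slc2a1 in LLC mice and at 25.6 ± 5.54 against 7.34 ± 1.18 in MC38 mice. The control culture had the same order, at 22.7 ± 1.88 and 8.94 ± 0.736, and with LLC supernatant the order was the reverse, at 9.63 ± 0.417 for Slc2a6 and 62.5 ± 0.816 for Slc2a1.

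Among hexokinases, Hk2 and Hk3 stood at 69.8 ± 3.7 and 69.9 ± 11.7 CPM per kilobase in TuMon2, a difference within the spread of the libraries. In TuMon1 Hk3 was at 101 ± 6.46 and Hk2 at 44.2 ± 0.873. In MC38 macrophages they stood at 67.5 ± 6.55 and 23.5 ± 0.94. Hk3 was the leading form in every culture group, at 62.7 ± 4.16 against 38.7 ± 2.31 for Hk2 in the untreated control, at 192 ± 1.23 against 38.6 ± 1.25 with LLC supernatant and at 175 ± 14.9 against 29.4 ± 2.56 with MC38 supernatant. Pfkl led the phosphofructokinases in TuMon2, with 50.7 ± 2.71 against 27.2 ± 3.04 for Pfkp and 1.19 ± 0.226 for Pfkm. In LLC spleen monocytes Pfkl and Pfkp were at 7.19 ± 0.983 and 7.89 ± 0.888, within their spread. Pfkfb4 exceeded Pfkfb3 in LLC spleen monocytes, at 33.2 ± 2.99 and 9.63 ± 1.64, and the order was the reverse in TuMon2, at 26.6 ± 1.06 and 60.5 ± 4.22.

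**Figure D5:**
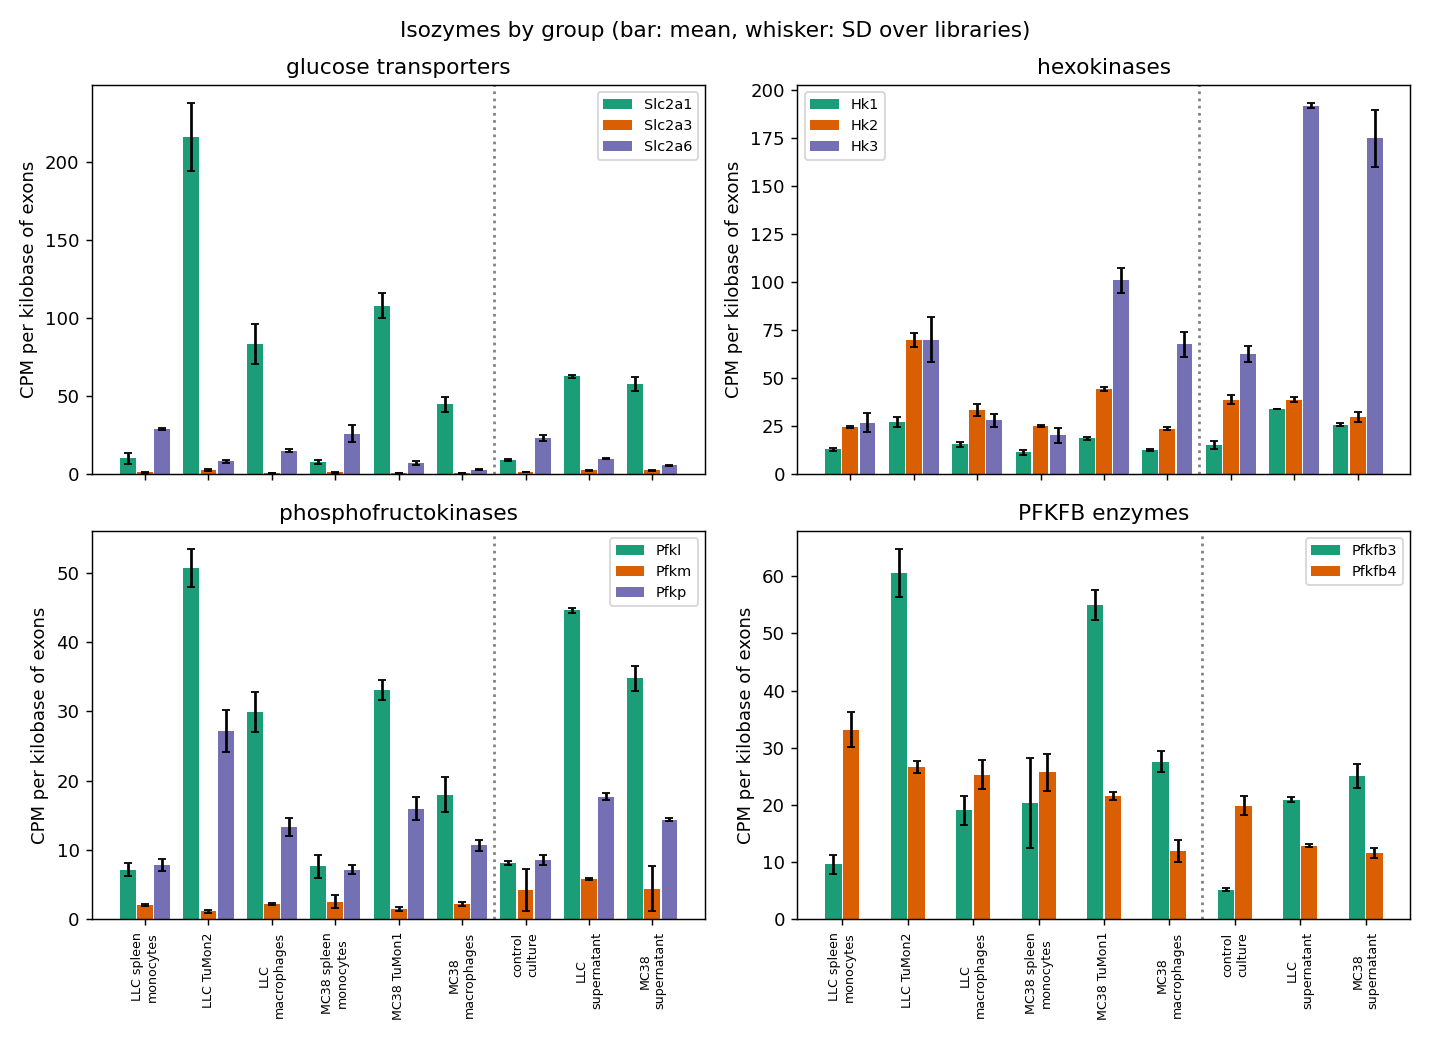
Mean level per kilobase of exons (bars, whiskers are the SD over libraries) of the glucose transporters, hexokinases, phosphofructokinases and PFKFB enzymes in the 9 groups, with the libraries from culture right of the dotted line. Slc2a1 and Pfkfb3 overtake Slc2a6 and Pfkfb4 from spleen to tumor monocytes, and Hk3 is the leading hexokinase in TuMon1, in MC38 macrophages and in all 3 culture groups, the untreated control included.

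Genes of the same pathways outside the set were counted beside the shares of all genes given above. Between TuMon1 and TuMon2, of 18 tested genes of glycolysis, pyruvate entry and related sugars 4 were higher and 4 lower (22.2% each way), near the 26.8% and 22.1% of all genes. Lower were, for example, Pdha1, a subunit of pyruvate dehydrogenase (-0.62 ± 0.07, adjusted p = 1.39e-07), and Pgm2 (-0.76 ± 0.10, adjusted p = 4.82e-07), and higher was Tigar, a fructose bisphosphatase (0.56 ± 0.11, adjusted p = 0.000237). Of 23 further hypoxia and HIF genes 12 were lower and 6 higher (52.2% and 26.1%). Bhlhe40, a hypoxia-induced repressor, was at 498 CPM in TuMon2 and 193 CPM in TuMon1 (-1.36 ± 0.14, adjusted p = 1.38e-08), and Kdm3a, a histone demethylase that HIF induces, was lower by -0.63 ± 0.09. Plod1 and Car9, both known HIF targets, were higher in TuMon1 (0.50 ± 0.08 and 0.77 ± 0.14).

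Between tumor and spleen monocytes, 15 of the 23 hypoxia and HIF genes were higher in each tumor (65.2%, against 28.6% of all genes in LLC and 33.5% in MC38 mice), and 2 in LLC and 7 in MC38 mice were lower (8.7% and 30.4%, against 34% and 36.6%). Of the 18 glycolysis and pyruvate genes outside the set 2 were higher and 8 lower in LLC (11.1% and 44.4%), and 3 were higher and 11 lower in MC38 mice (16.7% and 61.1%). These MC38 counts include the spleen libraries with fat cell transcripts. With them, 8 of the 23 hypoxia and HIF genes were higher and 1 lower in MC38 than in LLC spleen monocytes. Of the 18 glycolysis and pyruvate genes 10 were higher and 2 lower there. How far fat cell transcripts account for the genes lower in TuMon1 was not tested. Eno3, the muscle enolase, was at 92.8 CPM in LLC spleen monocytes and 8.23 CPM in TuMon2 (-3.50 ± 0.15, adjusted p = 5.09e-16), and Ldhb, the heart form of lactate dehydrogenase, at 28.7 and 6.03 CPM (-2.24 ± 0.16, adjusted p = 9.47e-12). In culture, Hmox1, which encodes heme oxygenase, rose by 3.85 ± 0.08 with LLC and 3.58 ± 0.08 with MC38 supernatant.

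The pentose phosphate pathway branches from glucose 6-phosphate. Of its 7 genes, 4 were lower and none higher in TuMon1 than in TuMon2 (57.1%, against 22.1% of all genes lower), and 4 were lower and none higher with MC38 than with LLC supernatant (57.1% against 18.5%). All 7 log2 differences were below 0 in both, with medians of -0.33 and -0.26, the same direction as most members. Pgd, a dehydrogenase of the pathway, averaged 407 CPM in the TuMon2 libraries and 236 CPM in those of TuMon1 (-0.79 ± 0.06, adjusted p = 3.3e-10). Against spleen monocytes, where most members were higher, 4 were lower in TuMon2 and 6 in TuMon1 (57.1% and 85.7%, against 34% and 36.6% of all genes), and none was higher. The MC38 spleen libraries with fat cell transcripts are included here too. G6pdx, which encodes the entry enzyme, was at 398 CPM in LLC spleen monocytes and 132 CPM in TuMon2 (-1.59 ± 0.09, adjusted p = 4.5e-14), and at 337 CPM in MC38 spleen monocytes and 116 CPM in TuMon1 (-1.54 ± 0.09, adjusted p = 4.77e-14). In culture 4 of the 7 were lower with LLC and 6 with MC38 supernatant than in the control (57.1% and 85.7%, against 36.1% and 32.5% of all genes), and none was higher.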

How the data were processed

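Libraries were made with a KAPA stranded mRNA kit, per the labels' protocols. CASAVA 1.8.2 and GRCm38 are named in the submitters' processing notes, with neither an aligner nor a counter given. The deposited table held the authors' expected counts per Entrez Gene identifier (14.62% of values were not whole). They were rounded to whole numbers, which moved no library total by more than 0.000368%. Symbols matched 24375 of 24475 identifiers, and the other 100 held 1.43% of counts. The test had been planned for whole counts and was kept.

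Groups were taken from the sample titles. Genes were tested with edgeR 4.0.16 (R 4.3.3) by filterByExpr, TMM scaling and robust quasi-likelihood F-tests, 2-sided, with Benjamini-Hochberg adjustment over all genes, in 1 fit of 24 libraries from mice (13200 genes) and 1 of 10 from culture (12603 genes), for 12 comparisons. SE is the log2 difference divided by the root of F. The biological coefficients of variation were 0.177 and 0.282. The scripts were tested on simulated data. Exon lengths came from GENCODE M21. Replicates of a group all differed by more than counting noise (chi-square per degree of freedom of 4.67 or more). The labels give no pairing, and in no pair of groups were all correlations of same-numbered samples over 0.1, so no pairing was used. Between TuMon2 and LLC macrophages these correlations ran from -0.07 to 0.38. They do not show that pairing is absent.

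The members and lists were chosen with earlier results of these data known. Up to 5 members per list and direction with the largest log2 difference were named in each comparison, with exceptions to the direction of their list and up to 3 genes of each outside list. As alternatives, scaling by RLE or by the upper quartile, testing without the filter or with a stricter one (5 CPM in 3 libraries), DESeq2 1.42.0, a replicate block, the compared groups alone, leaving out each library, and leaving out the 5 libraries with transcripts of other tissues were run.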

Additional observations from a re-analysis of the deposited data

Results flagged for a closer look

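In groups of 4 libraries, 25 of the 280 sets of values held 1 library set apart from the others by its gap to the nearest, where chance gives about 1 in 20. The second control culture accounted for 10 of these: Hk3 at 208.1 CPM (others 236.8 to 240.1), Pfkm at 29.69, Aldoc at 9.05, Pgk1 at 523.6, Eno2 at 35.14, Slc16a3 at 58.61, Hif1a at 191.7, Vegfa at 26.58, P4ha1 at 68.08 and P4ha2 at 2.899 CPM. It is the library with muscle transcripts, whose part in these values was not tested. In the fourth MC38 spleen library Gpi1 was at 557.4, Pgk1 at 265.6 and Pkm at 983.6 CPM, above the others, which carry fat cell transcripts. In LLC spleen monocytes the third library was high for Pfkfb3 (91.38 CPM) and Eno2 (0.08243 CPM).

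Among LLC macrophages the fourth library was high for Tpi1 (735.3 CPM) and Ldha (1098 CPM), the second for Bnip3l (81.8 CPM), and the third low for Ak4 (3.445 CPM). In TuMon1 the third library was low for Aldoa (1175 CPM), Eno2 (0.329 CPM) and Ankrd37 (15.19 CPM), and the first was high for Egln1 (78.52 CPM). Among MC38 macrophages Pfkfb4 was low in the fourth library (43.86 CPM) and Aldoc high in the first (10.99 CPM).

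A test of the difference between both tumors passed for the named members below. For macrophages against monocytes, MC38 minus LLC, the log2 values were 2.86 for Slc2a3, 0.75 for Hk3, 0.64 for Pgk1, 0.55 for Pkm, 0.45 for Pfkp, 0.56 for Ndrg1 and 0.38 for Egln1. On the other side they were -2.24 for Slc2a6, -0.94 for Aldoc, -0.79 for Pfkfb4, -0.65 for Slc16a3 and -0.83 for Ankrd37. For tumor against spleen monocytes they were 0.94 for Hk3 and 0.49 for Egln2, and negative for Eno2 (-4.69), Slc16a1 (-3.04), Slc2a3 (-2.05), Pfkfb3 (-1.22), Pdk1 (-1.15), Adm (-4.86), P4ha2 (-4), Ak4 (-2.74), Bnip3 (-2.74) and Egln3 (-2.36). Without the 3 MC38 spleen libraries with fat cell transcripts Hk3, Pfkfb3, Eno2, Bnip3, Adm, P4ha2 and Ak4 no longer passed there (adjusted p = 0.0586 for Hk3, 0.721 for Pfkfb3, 0.519 for Eno2, 0.45 for Bnip3, 0.149 for Adm, 0.932 for P4ha2 and 0.412 for Ak4). P4ha2 and Ak4 then had values of the other sign (0.23 and 3.33), Ak4 with 0 counts in the remaining MC38 spleen library.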

How the results depend on the processing

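Counts of members that passed stayed within 1.5 times their value under RLE scaling in all 12 comparisons, and under every alternative run for TuMon1 against TuMon2 (30 to 32 lower and 2 higher with 1 library left out) and for TuMon2 against LLC spleen monocytes. Exceptions in other comparisons follow. With only the compared groups in the fit, 4 members were higher with MC38 than LLC supernatant, 3 were higher in MC38 macrophages than in TuMon1, and 16 were higher in the difference of the macrophage differences, which DESeq2 put at 14. In MC38 against LLC spleen monocytes that fit called 0 members higher, 1 lower and 944 genes in all. Under upper-quartile scaling 3 members were higher in MC38 macrophages than TuMon1, and 0 with no filter or with the replicate block within the tumor line. The stricter filter left 4 higher between the spleens. Without the libraries with transcripts of other tissues, 5 members were higher between the supernatants, 3 were lower in TuMon1 than MC38 spleen, 2 were higher in MC38 macrophages than TuMon1, 15 were higher in the difference of the macrophage differences, and 19 were lower in the difference of the tumor-to-spleen differences, with 3600 genes called. Between the spleens it left 0 higher, 0 lower and 22 genes called.

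With 1 library left out, members higher ranged from 0 to 4 between the supernatants, from 0 to 2 in MC38 macrophages against TuMon1, from 2 to 5 between the macrophages and from 4 to 15 in the difference of the macrophage differences, and members lower from 4 to 11 between the spleens, where 2525 to 6640 genes were called. The count between the supernatants was 4 without the second control culture, 0 without the first LLC or second MC38 library, and 1 without LLC replicate 2 or 3 or MC38 replicate 1. In MC38 macrophages against TuMon1 it was 0 without TuMon1 replicate 2 or 3 or macrophage replicate 3 and 2 without MC38 spleen replicate 4. Between the macrophages it was 2 without LLC replicate 4 or MC38 replicate 2. The count of 15 came without MC38 spleen replicate 4 and that of 4 without MC38 macrophage replicate 1. Between the spleens 11 members were lower without any 1 TuMon2 library, LLC or MC38 spleen replicate 4 or TuMon1 replicate 4, 4 without replicate 3 of either spleen, and 6640 genes were called without MC38 spleen replicate 4.

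Directions turned in a few members. Without the libraries with transcripts of other tissues, Adm was -1.75 between the supernatants, Eno2 6.42 (MC38) and 6.99 (LLC supernatant) against control, Pfkm 0.12 and P4ha2 4.12 in TuMon1 against spleen, Pfkfb3 -0.03 and Bnip3 -0.37 between the spleens, and P4ha2 0.23 and Ak4 3.33 in the difference of the tumor-to-spleen differences, where the remaining MC38 spleen library has 0 counts of Ak4 and the fitted value is no bound. With 1 library left out Eno2 ranged from -1.61 to 6.98 with MC38 and from -1.45 to 7 with LLC supernatant, the highest values without the second control culture. Hk2 was 0.13 with LLC supernatant against control in a fit of these groups alone. The cause was not tested in any of these.

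The numbers do not pair the samples by the labels, and in no pair of groups were all correlations of same-numbered samples over 0.1. The replicate block gave 2 higher and 31 lower members for TuMon1 against TuMon2, 2 and 19 between the supernatants, and 28 and 4 for MC38 supernatant against control. Upper-quartile scaling moved the share of higher genes among all calls from 52.6% to 66.1% in LLC macrophages against TuMon2 and from 47.1% to 58.1% in MC38 macrophages against TuMon1, and the median of all genes from 0.06 to 0.21 in the former. Between the spleens the share was 50.7%, 62.1% with RLE and 66.8% with upper-quartile scaling. Members with few counts (Eno2, Adm, P4ha2, Ak4 in spleen or control libraries) are limited by depth.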
